A study of Mus musculus with 18 samples.

Results

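Pre-mid-pachytene spermatocytes of mice that carry the t12 haplotype together with the T43 translocation were compared with the same sorted fraction of C57BL/10J mice. The comparison used 5 of the 18 arrays of the series, 3 from carriers and 2 from C57BL/10J, which are all the C57BL/10J arrays of that fraction. A gene entered where at least 2 of these 5 arrays had a log2 value of at least 4, which left 8939 of 15780 named genes. The carriers, labelled t12+/+T43 and written t12/T43 below, had the strain name C57BL/10J-t12+/+T43. One chromosome 17 of a carrier is the t12 chromosome and the other carries the translocation. The C57BL/10J males, called fertile in the design text, carried neither, so effects of t12 and of T43 cannot be told apart in this comparison. All donors of sorted cells were males of 2 months, and the fraction was obtained by fluorescence-activated cell sorting of a testicular cell suspension. The design text calls the replicates biological, and whether 1 array stands for 1 animal or for a pool is not given in the sources used here. Other arrays of the series supplied values to set beside this comparison. These were pre-mid-pachytene cells of Ttf+/+T43H carriers (n = 3), mid-late-pachytene cells of C57BL/10J (n = 2), and testes at 15 days from t12/T43 males (n = 3) and from C57BL/6J (n = 2). Every value is the authors' log2 GCRMA value of one array, and every difference is t12/T43 minus C57BL/10J on the log2 scale with limma's standard error (SE).

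A t haplotype is a variant form of the proximal part of mouse chromosome 17 that holds inversions and suppresses recombination with the ordinary chromosome. T43H is a reciprocal translocation between chromosomes 16 and 17. In a carrier of both, parts of these chromosomes can fail to pair at meiosis. In pachytene spermatocytes, chromatin that has not synapsed is transcriptionally silenced, as the X and Y are in every normal male. The series' title names its question, what follows at meiosis when autosomal chromatin stays unsynapsed over a longer stretch. Spermatocytes that pass pachytene divide into round spermatids. Spermatids replace histones by transition proteins and protamines and build the acrosome and the sperm tail.

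The sorted fraction carried pachytene markers. All 9 pachytene markers on the array reached log2 4 on each of the 5 arrays, with means from 10.60 to 11.15. They averaged 10.28 and 10.21 in C57BL/10J mid-late cells, so they hardly separate pre-mid from mid-late cells. Markers of other cells were also measured. The 9 markers of round and elongating spermatids averaged 5.77, 7.86 and 5.78 in t12/T43 replicates 1 to 3 and 12.19 and 11.54 in C57BL/10J replicates 1 and 2. In these C57BL/10J arrays the spermatid means exceeded the pachytene means of 10.65 and 10.67. Of 9 Sertoli markers on the array, 5 reached log2 4 on every array, and the means were 5.55, 5.57 and 6.22 against 4.46 and 4.59. The 5 Leydig markers averaged 6.47, 6.73 and 8.69 against 4.83 and 3.40. For the 8 peritubular and endothelial markers the means were 4.17, 4.50 and 4.42 against 5.22 and 4.54. Among these 8, Actg2 read 3.67, 5.20 and 3.58 against 9.76 and 9.21. The other tested ones, Acta2, Myh11 and Tagln, differed by 0.23, 0.14 and 0.24 and did not pass. Between 0 and 2 of the 7 macrophage and blood markers reached log2 4 on any of the 5 arrays, and Cd68, Csf1r and Ptprc were under log2 4 on all of them. In such sorted RNA, fewer cells of a type and less RNA per cell cannot be told apart. Among the arrays, t12/T43 replicate 2 stood apart from its group. Its Pearson correlation across the tested genes was 0.939 and 0.926 with the other 2 carrier arrays, which correlated at 0.981 with each other, and 0.912 and 0.923 with the C57BL/10J arrays. Among the 557 genes lower in carriers, this array showed the smallest fall in 438. Replicate 3 of the carriers stood apart in its X level, described with the sex chromosomes. For Gapdh the difference between 3' and 5' control probes, which grows as RNA or its labelling gets poorer, was 3.44, 3.98 and 3.80 in carriers and 2.86 and 2.93 in C57BL/10J. That of actin was 3.13, 3.99 and 3.48 against 2.49 and 2.51, so both measures moved with genotype, and their part in the results was not tested.

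At an adjusted p under 0.05 (limma, Benjamini-Hochberg over all 8939 genes), 873 genes were called, 9.77% of those tested. Of these, 316 (3.54%) were higher in carriers and 557 (6.23%) lower. The falls were the larger changes. The median called fall was -3.06 and the median called rise 1.88. A difference of at least 4 was called for 173 lower and 12 higher genes. The median over all genes tested was 0.08. In 123 of the 557 lower genes all carrier arrays were under log2 4, where a value carries little signal over background, so these differences hang on how background was subtracted. In 55 of the 316 higher genes the same held for both C57BL/10J arrays. A gene that entered through 1 group alone could hardly come out with that group lower. Ranges of the 2 groups did not overlap in 4325 genes, 48.4% of those tested, so separation of the ranges alone was common. Leaving out 1 array at a time changed the counts: 207 genes were called without C57BL/10J replicate 1, 352 without its replicate 2 and 1391 without t12/T43 replicate 2. A call in all 5 such fits was held by 160 lower and 24 higher genes. All 316 higher and 557 lower genes had ranges apart, so leaving out 1 array could not turn a direction.

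**Figure D1:**
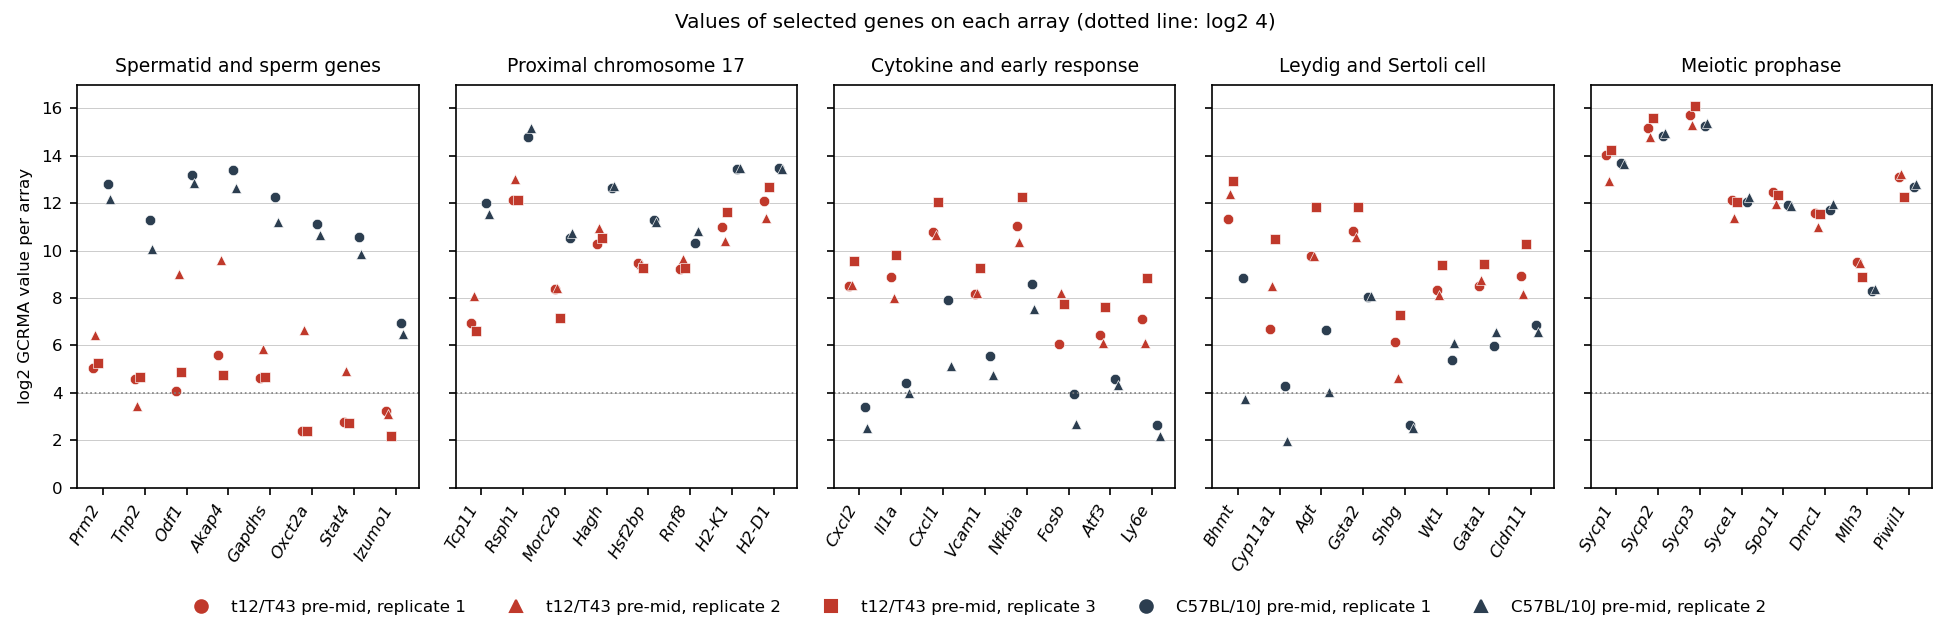
Log2 GCRMA values of 40 genes in 5 groups, 1 symbol per array, with t12/T43 in red and C57BL/10J in dark blue, and the shape giving the replicate. The spermatid and chromosome 17 genes shown sit lower in carriers, the cytokine, early response and somatic genes shown higher. These panels hold called genes only, so their separation follows from the choice. The meiotic prophase genes shown were not called. Sycp3 lies between 15.24 and 16.10, and Dmc1 at 11.57, 10.99 and 11.54 in carriers against 11.72 and 11.96.

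Genes that package the spermatid nucleus fell without exception among those tested. Of 12 genes of spermatid chromatin on the array, 11 were tested and 11 fell, with a median difference of -5.40 against 0.08 for all genes. Log2 4 was reached in C57BL/10J alone by 1 of the 11, which could hardly come out higher. Prm2, a protamine that condenses sperm DNA, stood at 5.03, 6.46 and 5.26 in carriers and at 12.80 and 12.18 in C57BL/10J. Every carrier array was far under both controls. The difference was -6.91 ± 0.42 (120.1-fold, limma adjusted p = 1.05e-04, n = 3 and 2). Tnp2, a transition protein that precedes the protamines, read 4.59, 3.46 and 4.68 against 11.27 and 10.06, a difference of -6.43 ± 0.53 (adjusted p = 3.18e-04). Here replicate 2 was the lowest carrier array, in contrast to most lower genes. Prm1, the other protamine, kept a higher level, at 8.16, 11.62 and 8.54 against 14.70 and 14.33. It fell by 5.08 ± 0.90 (adjusted p = 0.00847). Hmgb4, a chromatin protein of the testis, fell by 6.37 ± 0.82, and the variant histone genes H1f7 and H2bl1 by 5.40 ± 1.04 and 6.08 ± 1.02. Tssk6, a kinase needed for histone replacement, ranged from 3.17 to 8.51 in carriers and fell by 6.50 ± 1.28. The number called was 5 without C57BL/10J replicate 1 and 7 without replicate 2. It was 10 or 11 without any 1 carrier array.

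Components of the sperm tail fell next most often. Of 31 genes tested, 22 fell (71.0%) and 0 rose, with a median of -3.68. Of these 31, 2 reached log2 4 in C57BL/10J alone and could hardly come out higher. Odf1, which encodes an outer dense fibre protein of the tail, stood at 4.09, 9.02 and 4.89 in carriers and 13.18 and 12.84 in C57BL/10J. Replicate 2 lay nearer to the controls than to its own group, without reaching them. The difference was -7.01 ± 1.17 (adjusted p = 0.00669). Akap4, an X-linked scaffold of the fibrous sheath, read 5.61, 9.61 and 4.76 against 13.38 and 12.63 and fell by 6.35 ± 1.17 (adjusted p = 0.0103). Fscn3, an actin-bundling protein of the testis, read 2.97, 5.90 and 4.04 against 10.82 and 10.04 and fell by 6.12 ± 0.73 (69.8-fold, adjusted p = 0.00147). Spata19, a mitochondrial protein of sperm, and Spag4, a spermatid nuclear envelope protein, fell by 5.87 ± 0.57 and 4.85 ± 0.68. Some members did not pass. Spag6, a protein of the axoneme, stood at 8.15, 8.74 and 7.79 against 8.54 and 7.96, and Tekt1 at -1.22 ± 0.58 (adjusted p = 0.256) did not pass. The number called was 4 without C57BL/10J replicate 1, 13 without replicate 2 and between 17 and 23 without any 1 carrier array.

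Energy enzymes gave both large falls and values near 0. Of 18 genes of sperm energy metabolism tested, 5 fell, 0 rose and 13 did not pass, with a median of -0.59. Gapdhs, the glyceraldehyde phosphate dehydrogenase of sperm, read 4.62, 5.85 and 4.66 in carriers against 12.26 and 11.22, a difference of -6.69 ± 0.50 (103.5-fold, adjusted p = 2.40e-04). Oxct2a, a ketone body enzyme of sperm, read 2.39, 6.67 and 2.37 against 11.14 and 10.66 and fell by 7.08 ± 1.13 (adjusted p = 0.00560). Both carrier replicates 1 and 3 were under log2 4 for Oxct2a. Pgk2, the autosomal phosphoglycerate kinase that replaces the X-linked one in meiosis, read 7.53, 10.37 and 7.43 against 13.03 and 12.80 and fell by 4.47 ± 0.77. Ldhc, the lactate dehydrogenase already present in spermatocytes, differed by -0.13, and Pdha2, a retrocopy of an X-linked pyruvate dehydrogenase subunit, by -0.01, and neither passed. Without C57BL/10J replicates 1 and 2 in turn, 1 and 2 of these genes were called.

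The acrosome list gave an intermediate picture. Of 27 genes tested, 11 fell, 0 rose and 16 did not pass, with a median of -1.65. Log2 4 was reached in C57BL/10J alone by 4 of the 27, which could hardly come out higher. Izumo1, the sperm protein that binds the egg, read 3.24, 3.11 and 2.18 in carriers against 6.97 and 6.47 and fell by 3.88 ± 0.43 (adjusted p = 0.00114). All its carrier arrays were under log2 4, so Izumo1 was tested through the C57BL/10J arrays alone. Acrv1, an acrosomal vesicle protein, fell by 4.40 ± 0.66, and Lyzl4, a lysozyme-like protein of the acrosome, also fell (-3.28 ± 0.36). Acrbp, which binds proacrosin, fell by 1.83 ± 0.34. Spaca1, an acrosomal membrane protein, read 9.71, 10.41 and 9.58 against 10.35 and 10.06, with overlapping ranges and a difference of -0.30 (adjusted p = 0.850). Without C57BL/10J replicates 1 and 2, 2 and 4 genes were called, and 6 without t12/T43 replicate 3.

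Among 27 regulators that act in spermatids or before them, 6 fell and 0 rose, with a median of -0.04. Stat4, a transcription factor found in haploid germ cells, read 2.78, 4.92 and 2.75 against 10.56 and 9.84 and fell by 6.71 ± 0.67 (adjusted p = 7.87e-04). Fhl5, the testis coactivator of Crem, fell by 6.18 ± 1.32. Spz1, a spermatogenic zip protein (-5.74 ± 0.96), Papolb, the testis poly(A) polymerase (-3.71 ± 0.44), Sox5 (-3.13 ± 0.38) and Zmynd15 (-3.47 ± 0.84) fell too. Crem itself, an activator of spermatid genes, differed by -1.12 and did not pass. Neither did the RFX factor Rfx2 (0.65), Sox30 (0.73), Mybl1 (0.64), Brdt (0.28) or Tcfl5 (0.01), regulators that are active in spermatocytes. Leaving out C57BL/10J replicate 1 gave 3 calls.

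Falls in other families were led by testis genes. Of 61 chaperone genes tested, 9 fell (14.8%, against 6.23% of all genes) and 1 rose, with a median of -0.03. Hspa1l, a heat shock protein of spermatids on proximal 17, read 3.53, 8.10 and 3.34 against 11.94 and 11.41 and fell by 6.68 ± 1.20. Dnajb8 (-6.65 ± 0.77), Hspb9 (-4.41 ± 0.57), Dnajb13 (-3.17 ± 0.37) and Cct8l1 (-3.46 ± 0.22) fell, while the chaperonin subunits Cct2, Cct4 and Cct5, present in all cells, differed by 0.11, 0.31 and 0.14 and did not pass. Of 42 genes for dyneins, tektins, radial spokes and ciliary transport, 8 fell and 0 rose, among them Tekt5 (-3.94 ± 0.51), Rsph1 (-2.53 ± 0.42) and Ift140 (-1.87 ± 0.34). Of 21 genes of the piRNA pathway, which silences transposons in germ cells, Kif17 (-3.59 ± 0.62) and Tdrkh (-1.15 ± 0.25) fell and 19 did not pass. That share, 9.52%, was near the 6.23% of all genes, and the median of the list was 0.12. In C57BL/10J alone, log2 4 was reached by 1 chaperone, 2 cilia and 1 piRNA gene. Without C57BL/10J replicate 1 the lower calls in the chaperone, cilia and piRNA lists were 4, 1 and 0, and without replicate 2 they were 4, 1 and 1. The piRNA list had 1 without t12/T43 replicate 1 and the cilia list 5 without t12/T43 replicate 3.

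The promoters of the lower genes were searched for short letters linked to germ cell regulators. The promoters of 3 called tail and t complex genes are shown because each holds both letters found at a higher share among the lower genes, and they were chosen after the search. Each line gives the 250 bases before the first listed start of the gene, from RefSeq on GRCm38.p6, written 5′ to 3′ on the gene's strand. Capitals mark AACTG, the core of the site of MYB factors, and GTTGCC, part of the site of RFX factors, on either strand (CAGTT and GGCAAC on the other). The places are chr6:28427651-28427900 on the plus strand for Fscn3, chr17:28080640-28080889 on the minus strand for Tcp11 and chr4:126325689-126325938 on the minus strand for Tekt2.
Fscn3: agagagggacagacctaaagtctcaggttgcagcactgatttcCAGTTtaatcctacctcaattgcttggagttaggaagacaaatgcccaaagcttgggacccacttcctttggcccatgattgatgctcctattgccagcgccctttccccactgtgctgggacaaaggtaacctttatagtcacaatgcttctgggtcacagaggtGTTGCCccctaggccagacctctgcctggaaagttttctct
Tcp11: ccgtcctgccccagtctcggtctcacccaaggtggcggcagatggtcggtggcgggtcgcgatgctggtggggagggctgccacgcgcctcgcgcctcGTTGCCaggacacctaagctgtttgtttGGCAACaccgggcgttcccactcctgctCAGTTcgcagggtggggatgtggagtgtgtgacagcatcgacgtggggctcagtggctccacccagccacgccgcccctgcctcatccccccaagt
Tekt2: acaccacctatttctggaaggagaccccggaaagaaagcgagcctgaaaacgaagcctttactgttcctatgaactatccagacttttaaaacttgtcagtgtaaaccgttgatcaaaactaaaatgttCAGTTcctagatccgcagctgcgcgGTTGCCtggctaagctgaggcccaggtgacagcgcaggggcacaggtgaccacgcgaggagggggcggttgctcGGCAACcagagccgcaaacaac

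Of the 8939 tested genes, 7410 matched the promoter table by symbol, with 9428 promoters. AACTG was present in 44.3% of 636 promoters of called lower genes, 35.6% of 331 promoters of called higher genes, 33.5% of promoters of all tested genes and 39.1% of all 32851 promoters in the table. GTTGCC was present in 17.5%, 10.3%, 11.2% and 10.4% of the same sets. Both occurred in 8.65% of promoters of lower genes and 4.26% of those of all tested genes, and in 14 of the 55 lower promoters with both the matches shared bases. TGACG, part of the site bound by Crem, was less frequent in promoters of lower genes, at 21.7% against 27.9% of tested genes. In the same order, the TATA box letters TATAAA occurred in 9.12% and 6.26%. Some genes have several listed starts, so promoters are not independent, and these shares are descriptions with no test. A match is not a binding site, and no match speaks only of these letters in these 250 bases.

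Tcp11 and Tekt2, whose promoters are shown, both fell. Tcp11, a t complex protein of sperm, read 6.96, 8.07 and 6.63 in carriers against 12.01 and 11.56, a difference of -4.56 ± 0.42 (23.7-fold, adjusted p = 5.79e-04). Tekt2, a tektin filament protein of the tail, read 4.36, 6.68 and 5.11 against 8.68 and 8.03 and fell by 2.97 ± 0.64 (adjusted p = 0.0198). In both, all carrier arrays were lower than both control arrays.

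Lists of meiotic prophase held lower calls near or under the share of all genes. Of 20 genes of the synaptonemal complex and chromosome axis, 1 fell (5.00%, near the 6.23% of all genes), 0 rose and 19 did not pass, with a median of -0.02 and a range from -1.08 to 0.39. Sycp3, an axis protein, read 15.70, 15.31 and 16.10 in carriers and 15.24 and 15.38 in C57BL/10J, so the ranges overlapped. Sycp1, the transverse filament, differed by 0.06 ± 0.50 and Syce1, a central element protein, by -0.31 ± 0.28. The gene that fell was Cdk2, a kinase at telomeres and crossovers, by 1.08 ± 0.27 (adjusted p = 0.0386). It was called in 0 of the 5 fits that left out 1 array. Of 33 recombination genes, Hsf2bp fell and 32 did not pass, with a median of -0.16. Hsf2bp, a partner of Brca2 on proximal 17, read 9.47, 9.44 and 9.26 against 11.27 and 11.21, with little spread in either group. Its difference was -1.85 ± 0.21 (3.6-fold, adjusted p = 0.00114), and it stayed called in all 5 fits that left out 1 array. Dmc1, the meiotic recombinase, differed by -0.47 ± 0.25, Spo11, which makes the meiotic breaks, by 0.35 ± 0.45, and Mlh3, a crossover protein, by 0.97 ± 0.59, and none of them passed.

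Of 30 genes of DNA damage signalling and silencing, Rnf8 fell by 1.19 ± 0.27 (adjusted p = 0.0227) and 29 did not pass, with a median of -0.08. It was called in 1 of the 5 fits that left out 1 array, the one without t12/T43 replicate 2. Rnf8, a ubiquitin ligase at breaks, also lies on proximal 17. Atm, Brca1, H2ax and Topbp1, all parts of that response, differed by -0.14, -0.56, 0.06 and 0.40. Of 22 genes of p53 and apoptosis, 0 were called. Of 14 genes of leptotene and zygotene, 1 (7.14%), Morc2b on proximal 17, fell by 2.64 ± 0.49 and 13 did not pass. Without either C57BL/10J array, Morc2b was not called. Prdm9, which places recombination hotspots and lies on proximal 17, read 6.22, 5.69 and 6.95 against 7.31 and 7.43, a difference of -1.09 ± 0.75 (adjusted p = 0.459). Of 22 genes of spermatogonia and preleptotene cells, 0 were called, with a median of 0.18. Of 29 genes of late pachytene and division, 4 fell, and these were Hspa1l, Tcp11, Pgk2 and Rsph1, all on chromosome 17. Without C57BL/10J replicate 1 or 2, 1 of the 29 was called. Cyclin Ccna1 (-1.64 ± 0.46, adjusted p = 0.0579) and the kinase Plk1 (-1.53 ± 0.45, adjusted p = 0.0684) did not pass.

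**Figure D2:**
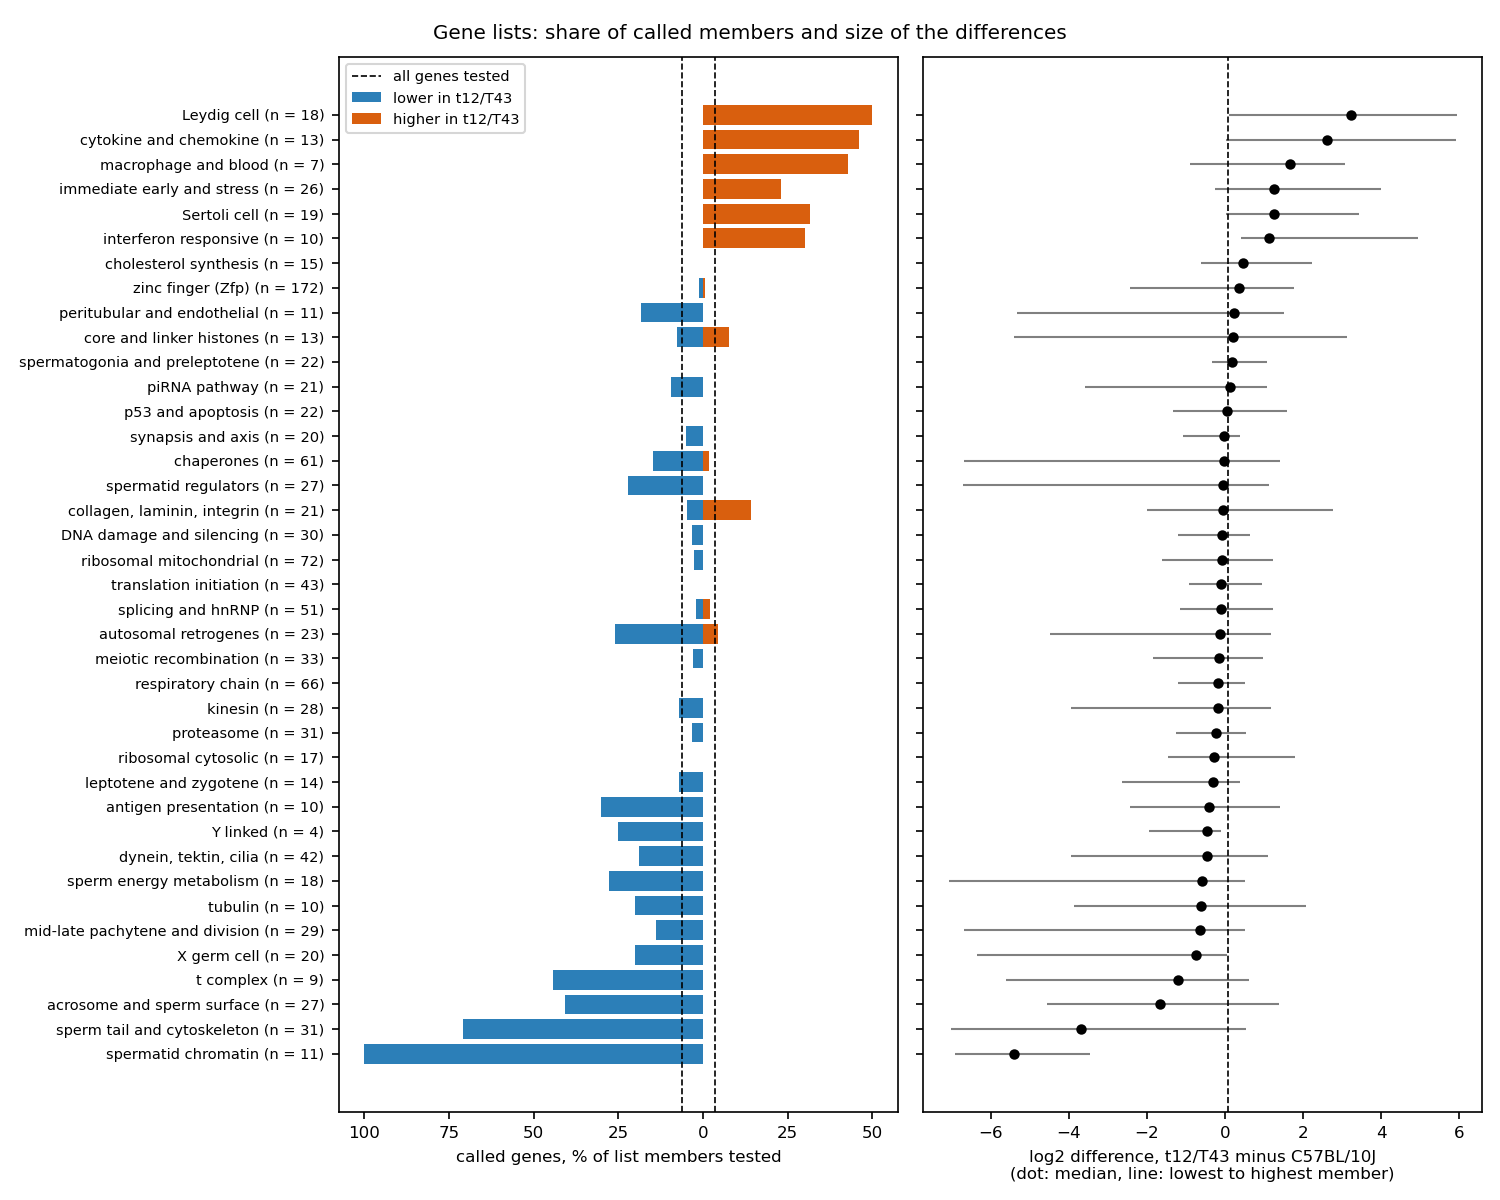
Left, share of tested members called lower (blue, to the left) or higher (orange, to the right) in t12/T43 for 39 gene lists, with dashed lines at 6.23% and 3.54% for all genes tested. Right, the median (dot) and the lowest to highest log2 difference (line) of each list, with the median of all genes, 0.08, dashed, from -5.40 for spermatid chromatin to 3.24 for Leydig genes.

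Among the lists with rises were cytokine genes and Leydig genes. Of 13 cytokine, chemokine and NF-kappaB response genes tested, 6 rose and 0 fell, with a median of 2.62. The promoters of 3 of them are shown because they carry letters of the NF-kappaB site. The lines give 250 bases before the RefSeq start on GRCm38.p6, and capitals mark GGG, any 2 bases and TTTCC on either strand. They lie at chr5:90890995-90891244 on the plus strand for Cxcl1, chr5:90903649-90903898 on the plus strand for Cxcl2 and chr12:55492648-55492897 on the minus strand for Nfkbia.
Cxcl1: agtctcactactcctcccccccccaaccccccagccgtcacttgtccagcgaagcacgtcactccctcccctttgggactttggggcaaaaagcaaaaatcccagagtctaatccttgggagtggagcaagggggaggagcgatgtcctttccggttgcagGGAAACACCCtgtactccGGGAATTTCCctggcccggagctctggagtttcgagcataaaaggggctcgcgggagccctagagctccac
Cxcl2: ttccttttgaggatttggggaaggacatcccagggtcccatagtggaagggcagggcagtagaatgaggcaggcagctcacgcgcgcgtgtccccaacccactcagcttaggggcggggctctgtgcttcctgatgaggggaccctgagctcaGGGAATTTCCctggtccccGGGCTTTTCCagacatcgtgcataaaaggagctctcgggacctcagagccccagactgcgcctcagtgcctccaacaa
Nfkbia: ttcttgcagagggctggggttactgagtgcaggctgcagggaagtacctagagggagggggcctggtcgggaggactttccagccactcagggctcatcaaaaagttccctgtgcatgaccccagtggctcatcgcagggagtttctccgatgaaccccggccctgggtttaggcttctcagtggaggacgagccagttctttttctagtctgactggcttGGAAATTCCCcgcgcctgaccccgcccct

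Cxcl2, a neutrophil chemokine, read 8.49, 8.56 and 9.55 in carriers and 3.39 and 2.52 in C57BL/10J, where both arrays were under log2 4. The difference was 5.91 ± 0.60 (limma adjusted p = 8.43e-04) and held in all 5 fits that left out 1 array. Its neighbour Cxcl1 read 10.79, 10.67 and 12.07 against 7.93 and 5.15, a difference of 4.64 ± 0.81 (24.9-fold, adjusted p = 0.00775). The C57BL/10J arrays differed from each other by more than the carriers did. Il1a, an interleukin, rose by 4.69 ± 0.88, and Vcam1, an adhesion molecule, by 3.39 ± 0.44. The inhibitors of NF-kappaB rose as well, Nfkbia from 8.59 and 7.55 to 11.02, 10.37 and 12.25 (3.14 ± 0.57, adjusted p = 0.00906) and Nfkbiz by 3.58 ± 0.71. Tnfaip3 (2.62), Icam1 (1.43) and Cxcl10 (1.01) did not pass. These letters were found in 5 of 12 promoters of the list (41.7%) and in 1.42% of promoters of all tested genes. The list was written to hold NF-kappaB response genes, so its high share can follow from that choice and is no finding of these data. In promoters of called higher genes the letters were present in 2.42%. Without C57BL/10J replicate 1, 4 of the list were called, and 2 without replicate 2.

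Of 26 immediate early and stress genes tested, 6 rose, 0 fell and 20 did not pass, with a median of 1.26. Fosb, a subunit of AP-1, read 6.06, 8.19 and 7.74 against 3.97 and 2.69 and rose with non-overlapping groups (adjusted p = 0.00875). Both its C57BL/10J arrays were under log2 4, and 4 of the 26 genes reached log2 4 in carriers alone. Atf3, a stress-induced factor, rose by 2.27 ± 0.45, Jun by 1.98 ± 0.45, and Egr1 and Egr2 by 1.66 ± 0.41 and 1.53 ± 0.39. Fos (1.15), Klf4 (1.23) and the heat shock gene Hspa1a (1.16) did not pass, and Hspa1b (-0.07) and Hsph1 (-0.07) were near 0. Leaving out C57BL/10J replicate 1 or 2 left 1 and 0 of the 26 called, and 2 were called without t12/T43 replicate 3. Of 10 interferon-responsive genes, 3 rose. Log2 4 was reached in carriers alone by 4 of the 10, which could hardly come out lower, and Ly6e was among them. Ly6e, a surface protein, read 7.11, 6.11 and 8.83 against 2.63 and 2.16, a difference of 4.95 ± 0.65 (adjusted p = 0.00219), and Ifi202b rose by 3.19 ± 0.60. Irf1 (0.96 ± 0.35) did not pass. Without either C57BL/10J array, 1 of the 10 was called.

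Lists of somatic cells gave different counts. Of 18 Leydig genes tested, 9 rose, 0 fell and 9 did not pass, with a median of 3.24. Log2 4 was reached in carriers alone by 4 of the 18, which could hardly come out lower. Cyp11a1, the enzyme that opens steroid synthesis, read 6.71, 8.52 and 10.50 in carriers and 4.31 and 1.99 in C57BL/10J, with wide spread in both groups. The difference was 5.42 ± 1.11 (adjusted p = 0.0160). Bhmt, a methyltransferase listed here as a Leydig gene, read 11.32, 12.40 and 12.93 against 8.84 and 3.73 and rose by 5.93 ± 1.25 (adjusted p = 0.0180). Cyp17a1, another steroidogenic enzyme, read 9.61, 10.56 and 12.98 against 8.55 and 3.03 and did not pass (5.26 ± 1.46, adjusted p = 0.0561). Hsd3b1 (3.38 ± 0.95, adjusted p = 0.0588) and Star (1.83 ± 0.71, adjusted p = 0.157), also of steroid synthesis, did not pass, and of 15 genes of cholesterol and steroid synthesis 0 were called, with a median of 0.45. In Bhmt and Cyp17a1 the C57BL/10J arrays lay farther apart than the carriers. Gsta2, a glutathione transferase, was steadier, at 10.80, 10.59 and 11.84 against 8.05 and 8.07 (3.02 ± 0.36, adjusted p = 0.00147). Without C57BL/10J replicate 2, 2 of the 18 were called. Of 19 Sertoli genes, 6 rose and 0 fell, with a median of 1.24. Wt1, a Sertoli transcription factor, read 8.32, 8.14 and 9.41 against 5.37 and 6.10 (2.89 ± 0.48, adjusted p = 0.00669). Gata1, Cldn11, a tight junction protein, and Shbg rose by 2.61 ± 0.37, 2.41 ± 0.51 and 3.44 ± 0.67. Abundant Sertoli RNA was present in both groups, with Clu at 14.28, 13.36 and 15.08 in carriers and 13.46 and 13.35 in C57BL/10J (0.84 ± 0.44, adjusted p = 0.306). The Sertoli count was 0 without C57BL/10J replicate 1, 2 without replicate 2 and 13 without t12/T43 replicate 2. Of 7 macrophage and blood genes, 3 rose, Ctss by 2.97 ± 0.33, Mpeg1 by 3.07 ± 0.60 and Apoc2 by 2.22 ± 0.53, of which 1 was called without either C57BL/10J array. Of 11 peritubular and endothelial genes, 0 rose and 2 fell, Actg2, a smooth muscle actin (-5.33 ± 0.54), and Smpx (-5.03 ± 0.35), with a median of 0.23. Smpx was tested through the C57BL/10J arrays alone. The markers Acta2, Myh11 and Tagln differed by 0.23, 0.14 and 0.24 and did not pass. In the Leydig, Sertoli and macrophage lists t12/T43 replicate 3 had the highest mean of the 5 arrays. The part of somatic RNA in the rises of cytokine and early genes was not tested.

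**Figure D3:**
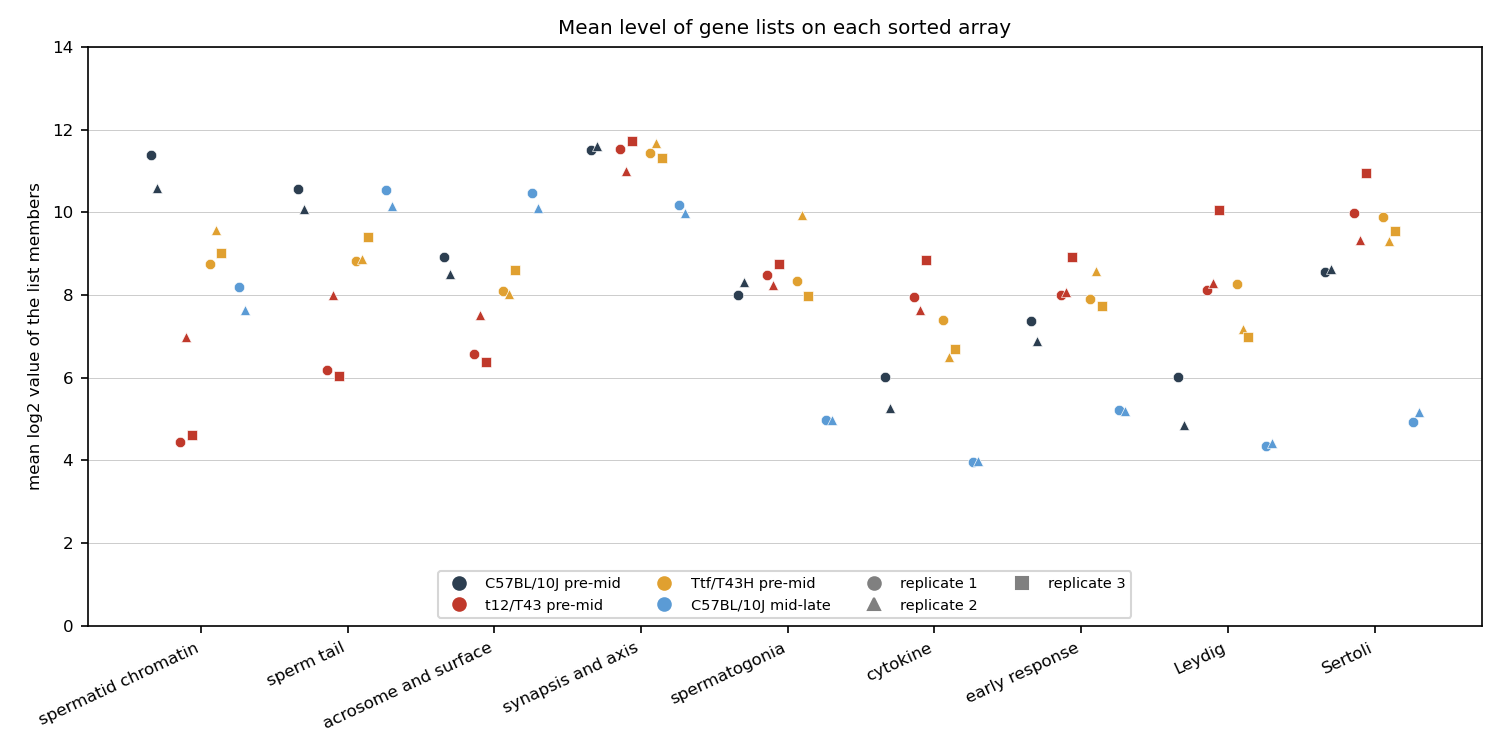
Mean log2 value of the tested members of 9 gene lists on each of the 10 sorted arrays, coloured by group and with the shape giving the replicate. Spermatid chromatin ranges from 4.43 on a t12/T43 array to 11.39 on a C57BL/10J pre-mid array, whereas synapsis genes of the pre-mid arrays stay between 10.99 and 11.73.

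Other sorted groups placed these levels. They share the fit, and the C57BL/10J arrays serve as controls for both carrier groups, so values are only set side by side. The mean level of spermatid chromatin genes was 4.43, 6.99 and 4.61 in t12/T43, 8.76, 9.57 and 9.02 in Ttf/T43H, 11.39 and 10.58 in pre-mid-pachytene and 8.20 and 7.64 in mid-late-pachytene cells of C57BL/10J. The C57BL/10J pre-mid-pachytene sorts thus read higher for spermatid chromatin genes than the mid-late-pachytene sorts of the same strain. Acrosome genes were ordered otherwise, at 6.58, 7.52 and 6.37 in t12/T43. C57BL/10J stood at 8.91 and 8.50 in pre-mid and 10.47 and 10.10 in mid-late cells. Leydig genes stood at 8.12, 8.29 and 10.07 in t12/T43, 8.26, 7.17 and 6.99 in Ttf/T43H, 6.02 and 4.85 in C57BL/10J pre-mid and 4.35 and 4.41 in mid-late cells. Sertoli genes stood at 9.98, 9.33 and 10.94, 9.90, 9.31 and 9.56, 8.57 and 8.62, and 4.93 and 5.17 in the same order. Over the 557 lower genes the median of group means was 4.37 in t12/T43, 6.71 in Ttf/T43H, 8.32 in C57BL/10J pre-mid and 7.81 in mid-late cells. Over the 316 higher genes it was 7.64, 7.12, 5.61 and 4.52. These genes were chosen by the t12/T43 contrast, so the t12/T43 and C57BL/10J pre-mid values follow from the choice.

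Proximal chromosome 17, the segment of the t haplotype, held a high share of lower genes. Of 436 named genes there, 253 were tested, and 56 (22.1%) fell and 2 (0.791%) rose, against 6.23% and 3.54% of all genes. The median difference was -0.57. Alleles of the t12 chromosome may differ from the probes across this segment, and how well the probes match them was not tested. Distal 17 had 17 lower and 1 higher among 175 tested, with a median of -0.17, and chromosome 16, the partner in the translocation, 22 lower and 11 higher among 293, with a median of -0.02. The mean level of proximal 17 relative to autosomes other than 16 and 17 was -0.87, -0.80 and -0.75 in carriers and -0.18 and -0.17 in C57BL/10J, and the groups did not overlap. In Ttf/T43H it was -0.66, -0.15 and -0.80. The difference between t12/T43 and C57BL/10J was -0.63 (exact two-sided permutation p = 0.2, adjusted 0.25 over 5 such tests), and 0.2 is the smallest p that 3 against 2 arrays allow. Levels of distal 17 and 16 differed by -0.30 and -0.22, with the same p. The number of lower genes on proximal 17 was 13 without C57BL/10J replicate 1, 16 without replicate 2 and between 39 and 56 without any 1 carrier array, and the median stayed between -0.64 and -0.46. Without these C57BL/10J arrays in turn, distal 17 had 3 and 5 lower genes and chromosome 16 had 8 and 11.

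Along the chromosome, every run of 30 genes within proximal 17 held lower genes, but the calls were not spread evenly. The first 21 tested genes from the centromere, up to Sod2, held 0 calls, and the 6 lower genes of the first run lay at places 22 to 29, from Tcp10c to Fam120b. The genes at places 32 to 48 held 0 calls as well. The bounds of both stretches were set after the calls were seen. The first run still had a median of -0.59, against -0.57 for all of proximal 17. Of its 27 genes tested in testes, 12 fell and 3 rose there. The sorted fit recovered 1% of simulated 2-fold changes, so 0 calls do not show that a stretch was unaffected. In consecutive runs of 30 tested genes from the centromere, the number called lower was 6, 7, 10, 5, 4, 8, 8 and 7 in the 8 runs that lie within proximal 17. The run across its end, which includes Pgk2, had 4. The distal runs of 30 had 3, 2, 6, 0 and 3, and the last 8 genes had 0. The richest run, from Ccnf to Tsr3, had 10 lower genes, a median of -0.80, and held Hagh, a glyoxalase, at 10.28, 10.97 and 10.53 in carriers against 12.65 and 12.72 (-2.09 ± 0.25, adjusted p = 0.00153). Rsph1, a radial spoke protein of the sperm tail and among the brightest genes there, read 12.15, 13.02 and 12.15 against 14.77 and 15.17, a difference of -2.53 ± 0.42 (adjusted p = 0.00669). In both genes the groups were clearly apart. Housekeeping genes were among the lower ones. Tbp, the TATA-binding protein, fell by 1.20 ± 0.28, Rnf5, a ubiquitin ligase of the endoplasmic reticulum, by 2.54 ± 0.32, and Mrps34, a mitochondrial ribosome protein, also fell (-1.62 ± 0.43). The genes that rose were C2 and Ddr1.

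**Figure D4:**
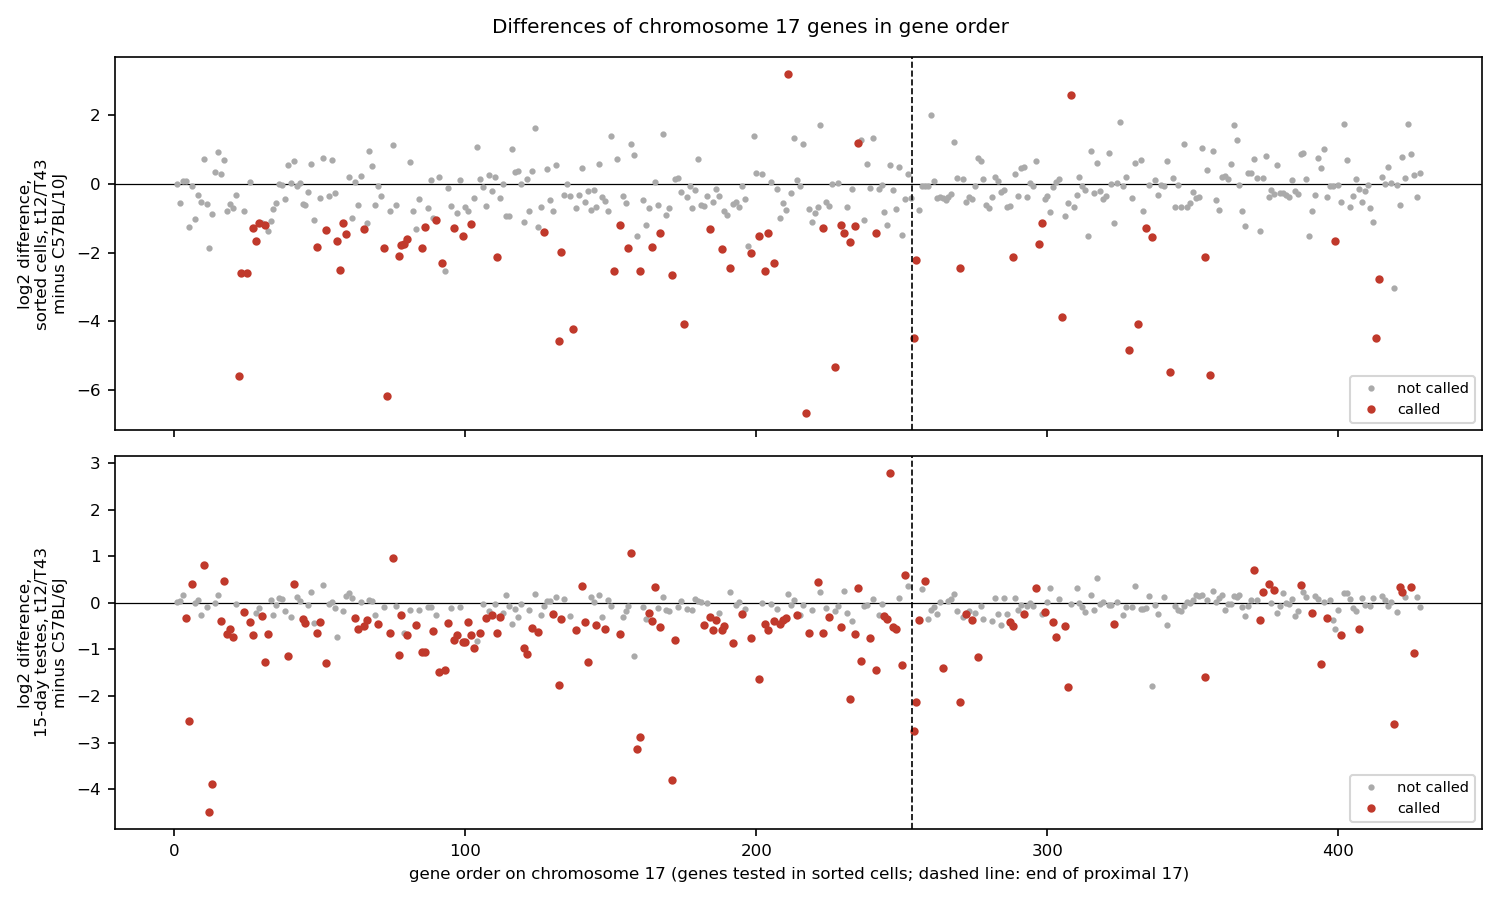
Log2 differences of tested chromosome 17 genes in gene order, in sorted cells (top, t12/T43 minus C57BL/10J) and in 15-day testes (bottom, t12/T43 minus C57BL/6J), with called genes in red and the end of proximal 17 dashed. Of 253 proximal genes, 56 fell in sorted cells, and in testes 99 of 230 did.

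The genes of the t complex and the major histocompatibility complex lie in this segment. Of 9 t complex genes tested, 4 fell and 0 rose, with a median of -1.20. Among the 9, 1 reached log2 4 in C57BL/10J alone. Tcp10c fell by 5.60 ± 1.39, but ranged from 2.01 to 7.89 in carriers and was called in 1 of the 5 fits that left out 1 array. The list had 1 call without C57BL/10J replicate 1 and 2 without its replicate 2 or t12/T43 replicates 1 or 3. Tcte2 fell by 2.60 ± 0.46, and Dnah8, an axonemal dynein, differed by -1.53 ± 0.56 (adjusted p = 0.137). Of 10 antigen presentation genes, 3 fell. H2-K1, a class I heavy chain, read 11.01, 10.42 and 11.64 in carriers against 13.45 and 13.50, a difference of -2.45 ± 0.34 (5.5-fold, adjusted p = 0.00277). H2-D1 read 12.08, 11.37 and 12.66 against 13.49 and 13.45 (-1.43 ± 0.38, adjusted p = 0.0470). H2-Ab1, a class II chain, read 2.87, 2.81 and 3.46 against 5.14 and 4.98 (-2.02 ± 0.25, adjusted p = 0.00179). For H2-K1 and H2-D1 all carrier arrays were under the controls. The same held for H2-Ab1, but its carrier arrays were all under log2 4. It was tested through the C57BL/10J arrays alone, so its direction followed from the filter. B2m, the class I light chain on another chromosome, differed by 0.35 and did not pass. A t haplotype brings its own alleles of these genes, and how well the probes match them was not tested. In Ttf/T43H the mean of H2-K1 was 10.27.

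On the X the shares of called genes were near those of all genes. Of 293 X genes, 13 rose (4.44%, against 3.54% of all genes) and 14 fell (4.78%, against 6.23%), with a median of 0.11. Log2 4 was reached in C57BL/10J alone by 9 of them and in carriers alone by 11. Relative to other autosomes, X genes had a mean level of -0.99, -0.81 and -0.17 in carriers and of -0.76 and -0.72 in C57BL/10J (difference 0.08, exact two-sided permutation p = 1). The ranges overlapped, and carrier replicate 3 was the highest. Without it 6 X genes rose and 17 fell, with a median of -0.19, and 2 and 3 rose without C57BL/10J replicates 1 and 2. In C57BL/10J mid-late-pachytene cells it was -4.03 and -4.16. Of 20 germ cell genes of the X, 4 fell, Akap4, Actrt1 (-4.47 ± 0.44), Tex13a (-3.19 ± 0.44) and H2al3 (-3.16 ± 0.33), genes known from spermatids, and 7 fell without t12/T43 replicate 3. Log2 4 was reached in C57BL/10J alone by 2 of the 20, which could hardly come out higher. Of 4 Y genes tested, Uty fell, at 2.74, 2.82 and 3.30 in carriers against 4.89 and 4.93 (-1.95 ± 0.24, adjusted p = 0.00173). Its carrier arrays were all under log2 4, so Uty was tested through the C57BL/10J arrays alone. Zfy2 differed by -0.35 ± 0.63, Usp9y by -0.55 ± 0.50 and Eif2s3y by -0.09 ± 0.41, and none of these passed.

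Lists of general cell functions were also counted. Among 17 cytosolic ribosomal, 66 respiratory chain and 43 translation initiation genes, 0 were called, with medians of -0.28, -0.17 and -0.09. Of 72 mitochondrial ribosomal genes 2 fell, Mrps34 and Mrpl42 (-1.21 ± 0.32), and of 31 proteasome genes Psmb2 fell by 1.25 ± 0.26. Of 51 splicing genes, Hnrnpr rose by 0.99 ± 0.23 and Prpf31 fell by 1.14 ± 0.26. Of 172 Zfp zinc finger genes, 1 rose, Zfp90 (1.56 ± 0.35), and 2 fell, Zfp474 and Zfp523, with a median of 0.34. The linker histone gene H1f2 rose from 7.70 and 7.65 to 9.44, 10.04 and 10.07 (2.18 ± 0.25, adjusted p = 0.00131), a rise with tight replicates that held in all 5 fits that left out 1 array. Emp1, a membrane protein, rose from 2.94 and 2.59 to 6.56, 7.04 and 6.66 (3.99 ± 0.33, adjusted p = 3.15e-04). Both C57BL/10J arrays were under log2 4, so Emp1 was tested through the carrier arrays alone.

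The 15-day-old testes offered a comparison with no shared arrays. At that age the first wave of germ cells is in meiotic prophase, and spermatids have not yet formed. In whole testes of t12/T43 against C57BL/6J, 1994 of 9098 genes were called (21.9%), 964 higher and 1030 lower. The control strain differs from that of the sorted cells. Genes tested in both numbered 7968. Of these, 495 were called in sorted cells and 1810 in testes, and 162 were called in both in the same direction, which is 32.7% of the sorted calls and 8.95% of the testis calls. A further 13 were called in opposite directions. On proximal 17, 48 genes were called in sorted cells, 111 in testes and 34 in both in the same direction (70.8% and 30.6%), with 0 opposite. Testis falls were more common there to begin with, in 99 of 230 genes tested in both against 971 of 7968 over all chromosomes. The shares that recurred therefore do not start from an equal base. On chromosomes other than 16 and 17, 117 of 419 sorted calls (27.9%) recurred in the same direction. The spermatid chromatin genes could not be compared, since 0 of the 11 were tested in testes.

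**Figure D5:**
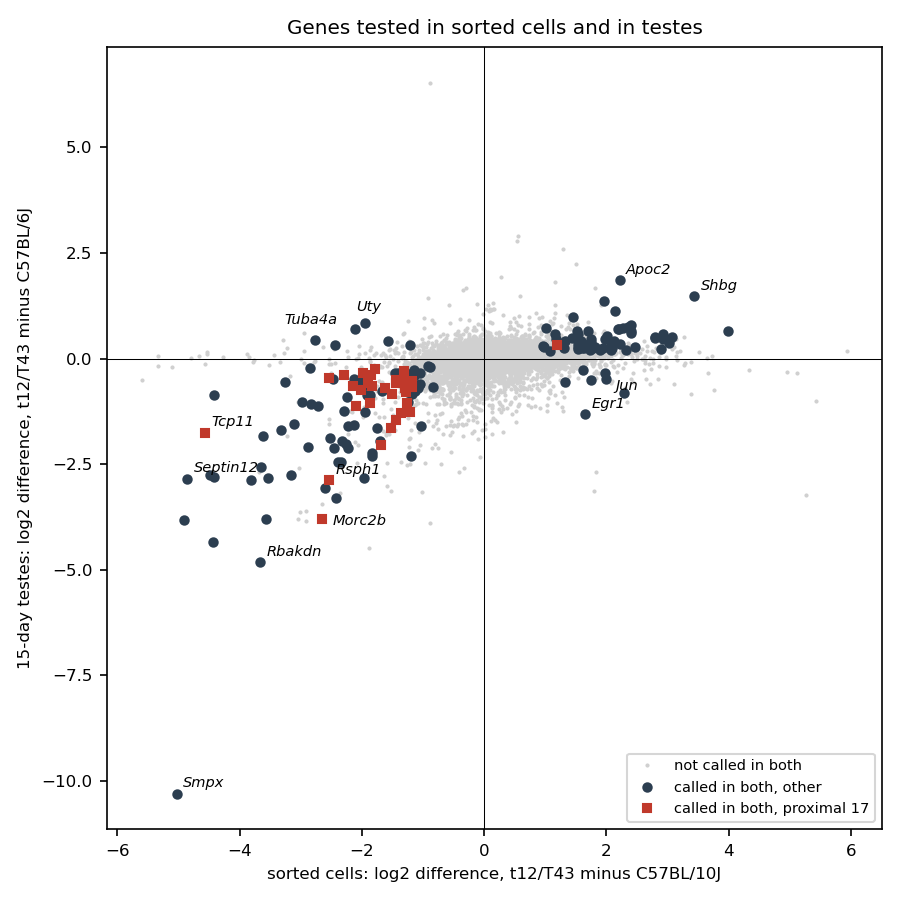
Log2 difference in sorted cells (x axis) against that in 15-day testes (y axis) for 7968 genes tested in both, with genes called in both in dark blue or, on proximal 17, as red squares, and the rest in grey. Smpx lies lowest, at -5.03 and -10.30, and the 13 genes called in opposite directions lie in the upper left and lower right.

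Among genes called in both, Smpx, an X-linked small muscle protein, had the largest falls. It read 2.42, 2.44 and 2.37 in sorted t12/T43 cells against 7.60 and 7.27 in C57BL/10J (-5.03 ± 0.35, limma adjusted p = 1.94e-04). In testes it read 2.39, 2.43 and 2.38 in carriers against 12.73 and 12.67 in C57BL/6J (-10.30 ± 0.05, adjusted p = 4.39e-11). All carrier arrays lay near 2.4 in both tissues, as did Ttf/T43H sorted cells at 2.38, 2.40 and 2.43. Smpx was thus tested through the control arrays alone in both tissues, so its direction followed from the filter. On proximal 17, Rsph1 (-2.88 ± 0.09) and Morc2b (-3.79 ± 0.33) fell in testes, Tcp11 by 1.75 ± 0.29 and Hagh by 1.11 ± 0.06. Genes of other chromosomes that fell in both included Septin12, a sperm annulus septin (-4.85 ± 0.49 in sorted cells, -2.84 ± 0.13 in testes), and Actl7b, an actin-like protein of the testis (-3.54 ± 0.52 and -2.83 ± 0.11). Qrich2, a sperm tail protein, and Cfap57, a ciliary protein, also fell in both (-3.81 ± 0.59 and -2.87 ± 0.13 for Qrich2, -2.42 ± 0.41 and -3.30 ± 0.33 for Cfap57). Rises in both included Shbg (3.44 ± 0.67 and 1.48 ± 0.12) and Apoc2 (2.22 ± 0.53 and 1.86 ± 0.20). The Leydig genes Bhmt and Cyp11a1 differed by 0.17 ± 0.13 and -1.01 ± 0.98 in testes and did not pass there, and H2-K1 differed by 0.22 ± 0.10 (adjusted p = 0.140). Whether the differences in the 2 tissues differed from each other was not tested.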

How the data were processed

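RNA of sorted spermatocytes and testes was measured on 18 arrays. The values the authors deposited are on a log2 scale and come from GCRMA, per the submitters' processing notes. Its version and the set of arrays normalized together are not given in the sources used here. Values were used as deposited. Of 16539 probe sets, 15780 carry 1 gene symbol and 759 carry none, 64 of them array controls, and the unnamed ones were left out. A RefSeq table of GRCm38.p6 gave chromosomes and gene order for 15752 genes, with proximal 17 ending before Pgk2, and promoters came from RefSeq on the same build. Arrays give no read depth, and their number limits the precision.

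The 10 sorted arrays were fitted with limma 3.58.1 in R 4.3.3 (lmFit with 1 mean per group, eBayes), so all 4 sorted groups share 1 estimate of the spread. A gene was tested where at least 2 of the 5 arrays compared reached log2 4. The 8 testis arrays were fitted likewise. Tests were two-sided, with Benjamini-Hochberg adjustment across the genes tested, and a gene was called under 0.05. Nothing says how many animals an array holds, so p-values measure the spread between these samples. Lists are described by counts and medians, with no set test. In simulated data with 200 changed genes among 8939, the sorted fit recovered 1% of 2-fold and 39% of 4-fold changes with 0 false calls. The testis fit recovered 90% and 96% among 9098, with 13 false calls. Noise was drawn for each gene independently, so shifts shared by many genes of an array were not simulated. The numbers of false calls hold for that setting and do not measure false calls in the real arrays.

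Named genes were the 15 largest called rises and falls with ranges apart, up to 6 genes of each list by p, and 8 of the X, the Y, 16 and each part of 17. To these were added up to 15 genes called in testes in the same direction, and members given where a list is described. Ccnf, Tsr3, Sod2, Fam120b, C2 and Ddr1 were named after their values were seen. The members, lists and tests were chosen with earlier results of these data known. Alternatives were the 5 arrays alone, other filters, quantile normalization, median centring, a trended robust variance, a replicate block, each array left out, and a minimum difference of 1.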

Additional observations from a re-analysis of the deposited data

Results flagged for a closer look

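Some genes of the lists were called in sorted cells and in testes in opposite directions, with every carrier array on 1 side of the controls in each tissue. Jun and Egr1, early response factors, rose in sorted cells and fell in testes, where their differences between t12/T43 and C57BL/6J were -0.35 and -1.31. Uty, a Y-linked demethylase gene, and Tuba4a, an alpha tubulin, fell in sorted cells and differed by 0.83 and 0.71 in testes. All sorted carrier arrays of Uty were under log2 4, so its direction there followed from the filter. Of the 5 sorted fits that left out 1 array, Jun and Egr1 were each called in 2 and Tuba4a in 1. Tuba4a fell by 2.11 ± 0.47 in sorted cells (limma adjusted p = 0.0226). The difference between the tissues was itself not tested, and the control strains were C57BL/10J and C57BL/6J.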

How the results depend on the processing

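No gene called in the main comparison turned its direction under any alternative. Ranges were apart in every called gene, so filters, variance settings and arrays left out could not turn one. Counts moved. With only the 5 arrays of the comparison, 420 genes were called (116 higher, 304 lower), and with no filter 182 were higher. The replicate block gave 453 (104 higher, 349 lower). Deviations of same-numbered arrays from their group means correlated at -0.20 and -0.23. With 2 C57BL/10J arrays these deviations mirror each other, so the correlations cannot decide whether the numbers pair the samples. In testes the replicate block gave 2872 calls, and quantile normalization turned the split of 964 higher and 1030 lower into 1253 and 925. Leaving out 1 array gave 207 to 1391 calls, 47 to 674 higher and 160 to 717 lower, with the lowest counts without C57BL/10J replicate 1 and the highest without t12/T43 replicate 2. In testes it gave 656 to 1647 calls, 299 to 773 higher and 357 to 874 lower. Filters at log2 6 or in each group, quantile normalization, centring, the trended variance and a minimum difference of 1 gave 654 to 932 calls. Without t12/T43 replicate 3 and Ttf/T43H replicate 2 together, an alternative chosen after seeing the data, 1037 were called. Values under log2 4 limit what low genes can show.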
